A study of Mus musculus with 9 samples.

Results

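Periostin (Postn) and other matricellular proteins are described here in Lewis lung carcinoma cells kept in a dish, grown under the skin or grown in the lung. The 10 genes chosen were Postn, Tnc, Fn1, Sparc, Spp1, Fbn1, Fbln2, Mfap5, Tgfbi and Dpt, each read through the array feature that carries its symbol. Of these, 8 were measured among 19505 genes, while Spp1 and Fbn1 were not analysed here. None of the 8 had a further feature, so no choice between features was needed. The genes were chosen with earlier results of these data known, and Postn, Dpt and Mfap5 were selected on their lower signals in lung than in subcutaneous samples. Differences between those 2 groups are therefore given for the 8 genes as a description, and nothing is read from the number of them that passed the threshold there. An adjusted p in the other comparisons, which share arrays with that one, sets a difference against the spread between arrays and is no independent support for the choice.

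The cells were 3LL cells carrying GFP, a mouse lung tumour line (strain label C57/BL6 mice), in 3 groups of 3 arrays. The dish group was cultured for 7 days. Cells of the remaining groups were placed into the lung or subcutaneously, and those positive for GFP were taken back after 7 days. All groups therefore share the line and the GFP label. The series text abbreviates the lung model as BLM without spelling it out, and the number of animals behind a sample is not given in the sources used here. The labels do not say whether replicates were independent cultures or animals, so every p reflects variation among arrays that may be technical.

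Matricellular proteins are secreted into the extracellular matrix, where they act mainly by binding cell-surface receptors, growth factors and other matrix proteins. Many are scarce in resting adult tissue and are made during wound repair, fibrosis and tumour growth, largely by fibroblasts. Periostin binds integrins and takes part in collagen assembly, and tenascin-C (Tnc), SPARC and the TGF-beta-induced protein (Tgfbi) modulate adhesion. Fibronectin (Fn1) is a main adhesive glycoprotein, dermatopontin (Dpt) binds decorin and fibronectin, and fibulin 2 (Fbln2) and Mfap5 belong to elastic fibres and microfibrils.

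Signals are log2 values as deposited, with no detection calls. A signal above the 90th percentile of 5222 negative control features on the same array (7.20 to 7.73) is called above background here. By that measure Sparc was above background on all 9 arrays, Fn1 on 5, Postn, Tnc and Dpt on 3 each, and Fbln2, Mfap5 and Tgfbi on 0. Of 7 genes listed for carcinoma epithelium, the keratin gene Krt8 was above background on all 9 arrays, Krt18 on the 3 subcutaneous arrays and on lung replicates 1 and 3, and Epcam, Cdh1, Krt7, Krt19 and Nkx2-1 on 0. The mean level of 33 genes with very long mRNAs, centred over the arrays, was 1.14 and 1.36 on lung replicates 1 and 2 and between -0.59 and -0.06 on the other 7 arrays, lung replicate 3 among them (-0.14). The upper quartile over genes was 8.55 to 8.68 on the lung arrays and 8.20 to 8.49 on the others. The level of a gene in a bulk sample does not tell fewer expressing cells from less RNA per cell.

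Between subcutaneous and dish samples 4 of the 8 genes rose, Postn, Dpt, Tnc and Sparc, and 0 fell, where 12.9% of all genes were called, 6.41% higher and 6.47% lower. The median log2 difference of the 8 was 1.12, against -0.01 over all genes. Between lung and dish samples 1 of the 8 rose, Sparc, and 0 fell, where 6.78% of all genes were called, 4.81% higher and 1.97% lower. The median was 0.03 against -0.07. Between lung and subcutaneous samples, the comparison used in the choice, the threshold was passed by 3 of the 8, the lower Postn, Dpt and Mfap5, an outcome that the choice fixes, where 15.0% of all genes were called, 5.79% lower and 9.21% higher. Mfap5 did not pass in 9 of 19 alternatives (adjusted p up to 0.22), and on leaving out 1 array the count was 2 to 3. The median was -0.77 against -0.07.

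The groups of 3 arrays did not overlap for 6 of the 8 genes between subcutaneous and dish samples, 5 higher and 1 lower, where this held for 29.3% of all genes (14.2% higher, 15.1% lower). Between lung and dish samples they did not overlap for 4 of the 8, 2 higher (Tnc and Sparc) and 2 lower (Fbln2 and Mfap5), where this held for 28.4% of all genes (13.4% higher, 15.0% lower). Between lung and subcutaneous samples they did not overlap for 3 of the 8, all lower, where this held for 32.5% of all genes (15.8% higher, 16.8% lower). After scaling the arrays to 1 upper quartile the all-gene median moved by -0.31 for lung against subcutaneous and by -0.34 for lung against dish samples, and calls over all genes split into 1124 higher and 2936 lower (before scaling 1797 and 1130) and into 565 and 1787 (before scaling 938 and 384). After quantile normalization the split was 662 and 553 for lung against dish samples. The 3 comparisons share arrays, so they are not independent of each other.

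**Figure D1:**
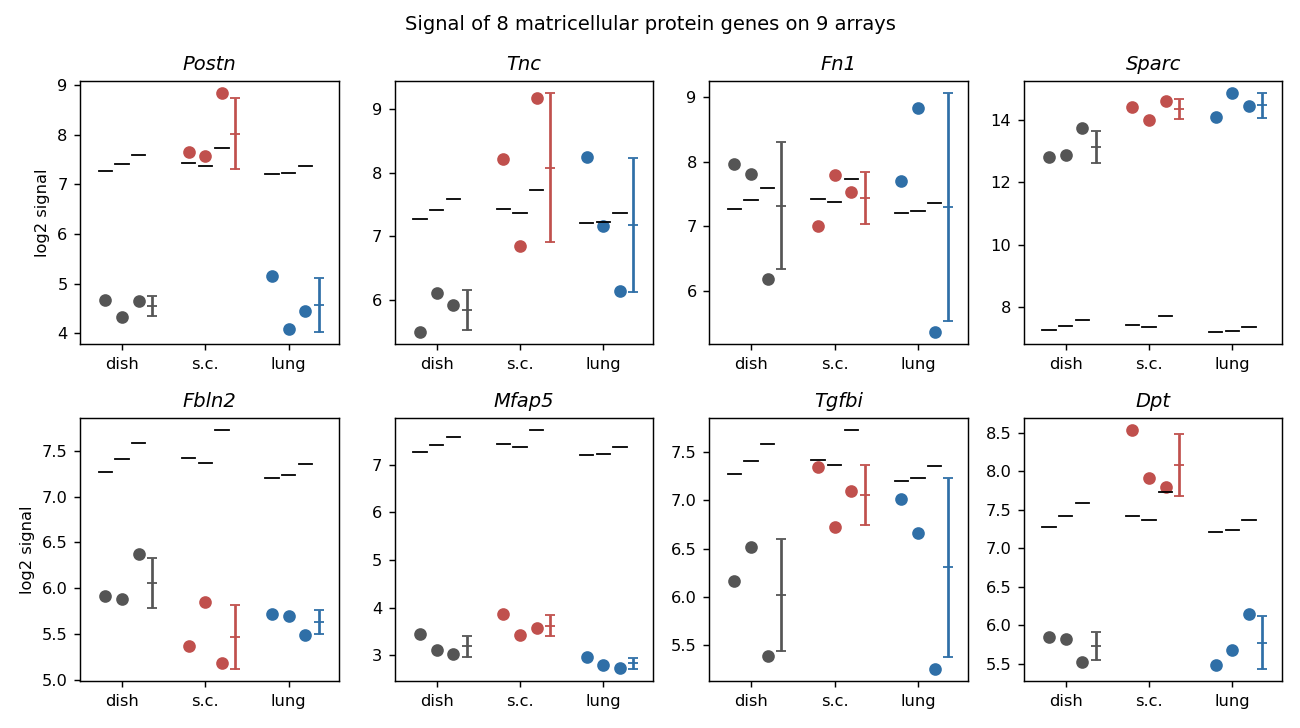
Log2 signal (y axis, a separate scale per gene) of the 8 measured genes on the 3 dish, 3 subcutaneous (s.c.) and 3 lung arrays, replicates 1 to 3 from left to right. Points are arrays, short black lines the 90th percentile of the negative controls on that array, and bars the mean and SD (n = 3); Postn and Dpt pass the black lines on the subcutaneous arrays alone, and Sparc lies above them on all 9.

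Postn, which lies on chromosome 3 (54359267 to 54391041, GRCm38.p6), was high in subcutaneous samples and low elsewhere. Its signal was 4.68, 4.32 and 4.65 in the dish samples, 7.66, 7.57 and 8.84 in the subcutaneous samples and 5.16, 4.09 and 4.46 in the lung samples. All 3 subcutaneous values stood above all other values, and the dish and lung values overlapped. The group means were 4.55 ± 0.20 (SD, n = 3) in the dish, 8.02 ± 0.71 under the skin and 4.57 ± 0.55 in the lung.

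Postn rose under the skin against the dish by 3.47 on the log2 scale (standard error 0.36, limma adjusted p = 5.19e-05). Its lung against subcutaneous difference was -3.46. Between lung and dish samples the difference was 0.02, with a 95% interval from -0.76 to 0.79 (limma adjusted p = 0.987). Since Postn was not above background in dish or lung samples, the part of the difference that was measured above background is at least 0.60 against the dish and at least 0.76 against the lung. Without subcutaneous replicate 3, the highest array, these bounds are 0.19 and 0.35. With the 95th percentile of the negative controls (8.19 to 8.96) as background, an alternative chosen after the data were seen, 0 of 3 subcutaneous arrays were above it and no bound can be given.

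Dpt, on chromosome 1 (164796663 to 164824274), followed the same order. It gave 5.85, 5.83 and 5.52 in the dish, 8.54, 7.91 and 7.79 under the skin and 5.49, 5.68 and 6.15 in the lung. The subcutaneous values did not overlap with any other, and those of dish and lung did. The rise under the skin against the dish was 2.35 (standard error 0.27, limma adjusted p = 0.000127), at least 0.66 above background. The difference between lung and subcutaneous samples was -2.31, at least 0.81 above background, and that between lung and dish samples was 0.04 (95% interval -0.55 to 0.63). Without subcutaneous replicate 1 the bound against the dish is 0.43. Only 1 of 3 subcutaneous arrays passed the 95th percentile of the controls, and with that as background no bound can be given for Dpt. Among the 8 genes Dpt was the nearest to Postn in profile, with a root mean square difference of 0.81 between centred log2 values over the 9 arrays. Both were selected on lower signals in lung than in subcutaneous samples, so this likeness follows in part from the choice.

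Tnc, on chromosome 4 (63959785 to 64047015), encodes a large anti-adhesive glycoprotein of wound and tumour stroma. Its signal was 5.49, 6.10 and 5.93 in the dish, 8.22, 6.85 and 9.18 under the skin and 8.24, 7.16 and 6.13 in the lung. All values of both transplanted groups stood above those of the dish, and the transplanted groups overlapped each other. Subcutaneous replicate 2 and lung replicates 2 and 3 were not above background. The rise under the skin against the dish was 2.24 (standard error 0.55, limma adjusted p = 0.0167), at least 0.66 above background. It no longer passed when dish replicate 1 (adjusted p = 0.0665), dish replicate 3 (0.0507), subcutaneous replicate 1 (0.0528) or subcutaneous replicate 3 (0.0694) was left out. The bound was 0.11 without subcutaneous replicate 3 and 1.27 without subcutaneous replicate 2. With the 95th percentile of the controls as background, 1 subcutaneous array was above it and no bound can be given. In the lung Tnc stood 1.34 above the dish (95% interval 0.14 to 2.53, limma adjusted p = 0.175) and its lung against subcutaneous difference was -0.90 (95% interval -2.10 to 0.29). With array weights the lung against dish difference was 1.77 and passed (limma adjusted p = 0.0242).

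Upstream bases of Postn, Tnc and Dpt, the genes above background in at least 1 subcutaneous sample and in 0 dish samples, are printed to show the promoters of the genes that rose from background under the skin. They are the 100 bases before each RefSeq start (GRCm38.p6), 5′ to 3′ on the strand of the gene, with matches to the TATA box letters TATANA on either strand in capitals (overlapping matches run together). RefSeq promoters were found for 6 of the 8 measured genes, and those of Sparc, Fbln2 and Tgfbi, not printed, hold no match in this window.
Postn, first start (chr3:54359167-54359266, plus strand): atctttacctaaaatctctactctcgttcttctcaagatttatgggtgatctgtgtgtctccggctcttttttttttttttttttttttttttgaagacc
Postn, second start (chr3:54361007-54361106, plus strand): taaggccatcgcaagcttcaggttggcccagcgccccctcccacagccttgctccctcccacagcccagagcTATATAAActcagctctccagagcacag
Tnc, first start (chr4:64047016-64047115, minus strand): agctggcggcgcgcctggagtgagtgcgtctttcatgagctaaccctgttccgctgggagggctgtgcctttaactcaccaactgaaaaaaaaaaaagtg
Tnc, second start (chr4:64046937-64047036, minus strand): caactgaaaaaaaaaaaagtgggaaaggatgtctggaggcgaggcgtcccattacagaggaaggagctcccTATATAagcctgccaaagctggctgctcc
Dpt (chr1:164796563-164796662, plus strand): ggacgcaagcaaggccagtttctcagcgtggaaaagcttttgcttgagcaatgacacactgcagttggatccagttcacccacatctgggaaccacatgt
The letters were found before the second start of Postn, where the match nearest the start begins 26 bases upstream, and before the second start of Tnc, where it begins 29 bases upstream. They were not in this window before the other starts of these genes. Of 32851 RefSeq promoters, 9.48% hold a match in the same window. The arrays give 1 value per gene and do not tell these starts apart.

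Sparc, on chromosome 11 (55394159 to 55420080), encodes a collagen-binding calcium-binding glycoprotein and was the 1 member well above background everywhere. Its signal was 12.81, 12.86 and 13.73 in the dish, 14.43, 14.00 and 14.62 under the skin and 14.09, 14.86 and 14.46 in the lung. Every transplanted sample stood above every dish sample, and the transplanted groups overlapped. Sparc rose by 1.21 under the skin (standard error 0.31, limma adjusted p = 0.0204) and by 1.33 in the lung (standard error 0.31, limma adjusted p = 0.022) against the dish. Lung and subcutaneous samples differed by 0.12, with a 95% interval from -0.55 to 0.79. Of the dish samples replicate 3 was the highest.

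The calls of Sparc depended on single arrays. Under the skin the call was lost without dish replicate 1 or 2 (adjusted p = 0.081 and 0.0895), without subcutaneous replicate 1 or 3 (0.0572 and 0.0719) and with RNA integrity (RIN) as a covariate (0.116). In the lung it was lost without dish replicate 1 or 2 (adjusted p = 0.0736 and 0.105), without lung replicate 2 (0.0927), with upper quartile scaling (0.0683), with RIN (0.063) and with the long-mRNA level (0.232). The difference stayed between 0.99 and 1.63 under all alternatives run for lung against dish and between 1.05 and 1.51 for subcutaneous against dish.

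**Figure D2:**
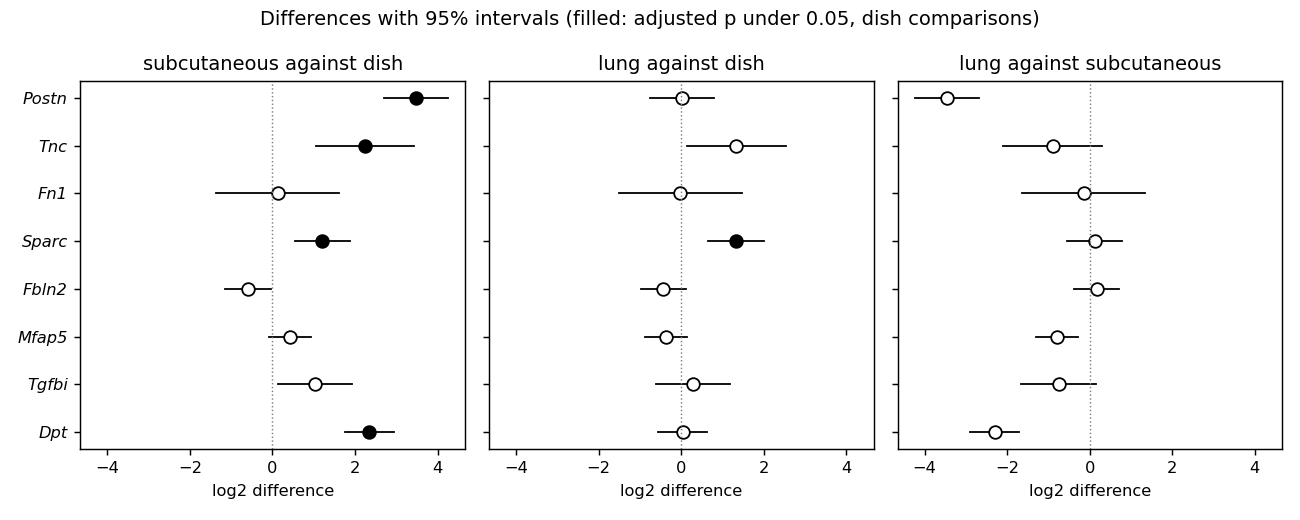
Log2 difference (x axis) of each of the 8 genes (y axis) in the 3 comparisons, with 95% intervals from the limma fit; filled points in the 2 comparisons with the dish have an adjusted p under 0.05 over 19505 genes, and points of lung against subcutaneous samples, used in the choice, are all open. Postn and Dpt lie to the right of 0 under the skin against the dish (3.47 and 2.35), near 0 in the lung against the dish (0.02 and 0.04) and to the left of 0 in the lung against the skin (-3.46 and -2.31).

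Fn1, on chromosome 1 (71585473 to 71653280), did not differ detectably between groups in the fit without covariates, with wide intervals. Its signal was 7.96, 7.81 and 6.18 in the dish, 7.00, 7.79 and 7.54 under the skin and 7.70, 8.82 and 5.36 in the lung. The groups overlapped, the highest and the lowest of the 9 values were both lung arrays, and dish replicate 3 stood below the other dish arrays. The intervals of the differences were -1.37 to 1.62 for subcutaneous against dish, -1.51 to 1.47 for lung against dish and -1.64 to 1.34 for lung against subcutaneous samples (limma adjusted p = 0.943 and 0.992 for the comparisons with the dish). Between lung and subcutaneous samples the difference was -0.15 with all arrays, 0.82 without lung replicate 3 and -2.49 with the long-mRNA level as a covariate. In 1 of 20 alternatives this difference was called (lowest limma adjusted p = 0.0273).

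Tgfbi, on chromosome 13 (56609586 to 56639359), a secreted adhesion protein with the same fasciclin-type repeats as periostin, was not above background on any array. It gave 6.16, 6.52 and 5.39 in the dish, 7.35, 6.73 and 7.10 under the skin and 7.01, 6.66 and 5.26 in the lung. The subcutaneous values stood above those of the dish and overlapped those of the lung. The differences were 1.03 for subcutaneous against dish (limma adjusted p = 0.136), 0.28 for lung against dish (0.75) and -0.75 for lung against subcutaneous samples. Without lung replicate 3 the subcutaneous against dish difference was called (limma adjusted p = 0.0438).

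Lung replicate 3 was the lowest of the lung arrays for Fn1, Tgfbi and Tnc, and also for Fbln2 and Mfap5, but not for Postn, Sparc and Dpt. Tgfbi, Fbln2 and Mfap5 were under background on every array. The long-mRNA genes had the same low array among the lung samples. The mean long-mRNA level was -0.26, -0.59 and -0.55 on dish replicates 1 to 3, and Fn1 and Tgfbi were lowest on dish replicate 3. The list of long mRNAs also holds the cell-division genes Mki67, Cenpe, Cenpf and Aspm. RIN was 8.3, 7.9 and 8.3 on lung replicates 1 to 3 and 8.5, 8.6 and 8.4 on dish replicates 1 to 3. On subcutaneous replicates 1 to 3 it was 8.6, 7.5 and 7.8. The part of RNA quality in these levels was not tested.

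**Figure D3:**
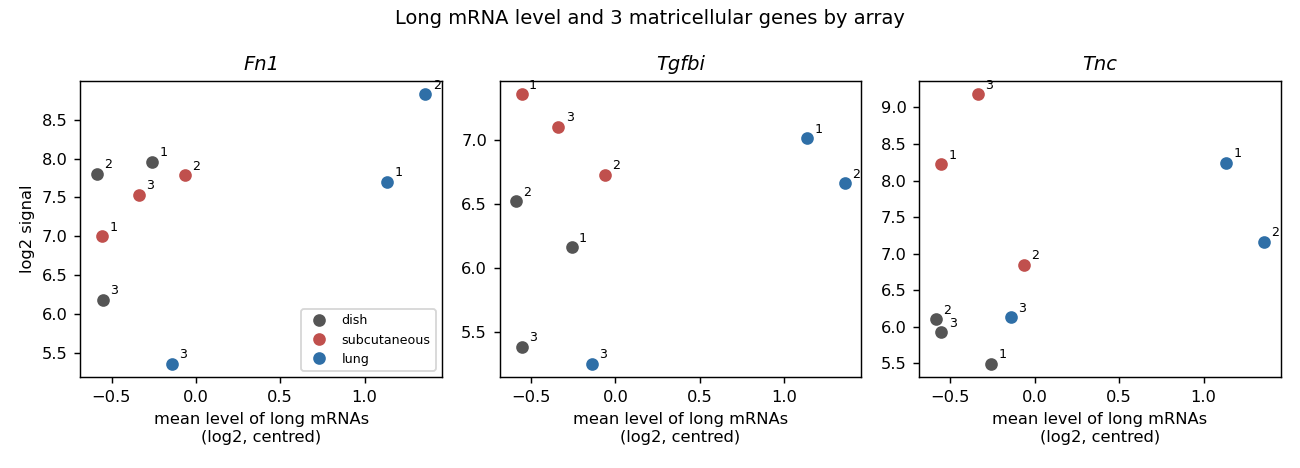
Log2 signal of Fn1, Tgfbi and Tnc (y axis) against the mean log2 level of 33 long-mRNA genes centred over the arrays (x axis); each point is an array, coloured by group and numbered by replicate. Lung replicates 1 and 2 lie to the right at 1.14 and 1.36, and lung replicate 3 lies at -0.14 with the lowest Fn1 and Tgfbi signals of the 9 arrays.

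The microfibril and elastic fibre members were low on every array. Fbln2, on chromosome 6 (91212460 to 91272540), gave 5.92, 5.89 and 6.38 in the dish, 5.37, 5.85 and 5.18 under the skin and 5.71, 5.69 and 5.49 in the lung. Its dish values stood above those of both transplanted groups, with differences of -0.60 under the skin (limma adjusted p = 0.158) and -0.43 in the lung (limma adjusted p = 0.354), all under background. Mfap5, on chromosome 6 (122513584 to 122529290), gave 3.44, 3.11 and 3.02 in the dish, 3.86, 3.42 and 3.56 under the skin and 2.96, 2.78 and 2.74 in the lung. Its lung against subcutaneous difference was -0.79, but since all 9 values lay under background no fold can be read from it.

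Of 26 further matricellular genes that were measured, 1 rose and 2 fell under the skin against the dish, 1 rose and 1 fell in the lung against the dish, and 4 rose and 2 fell in the lung against the skin. The called shares were 11.5%, 7.69% and 23.1%, against 12.9%, 6.78% and 15.0% of all genes, and the median differences were -0.06, -0.03 and 0.01. Thrombospondin 2 (Thbs2), an inhibitor of angiogenesis, gave 7.49, 7.34 and 7.43 in the dish, 9.16, 9.92 and 9.90 under the skin and 4.83, 5.65 and 6.10 in the lung, with no overlap between any groups. It rose by 2.24 under the skin against the dish (limma adjusted p = 0.000583) and fell by 4.14 in the lung against the skin (limma adjusted p = 2.57e-05), at least 2.40 above background. Against the dish it fell by 1.89 in the lung (limma adjusted p = 0.00469), with 1 of 3 dish arrays and 0 of 3 lung arrays above background. This call was lost with the long-mRNA level as a covariate (adjusted p = 0.213). Thbs2 thus shared the high subcutaneous values of Postn and Dpt, while its lung values lay under those of the dish.

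The calcium-binding matricellular gene Smoc1, a relative of Sparc, ran the other way. It gave 7.79, 7.79 and 8.11 in the dish, 5.95, 6.46 and 6.24 under the skin and 7.80, 7.60 and 6.77 in the lung. It fell by 1.68 under the skin against the dish (limma adjusted p = 0.00176), at least 0.39 above background, and stood 1.18 above its subcutaneous level in the lung (limma adjusted p = 0.0157; 0.0533 to 0.0843 on leaving out lung replicate 1, lung replicate 2 or subcutaneous replicate 1, 0.0505 with upper quartile scaling and 0.524 with the long-mRNA level). The other calls were of genes not above background on any array. Sparcl1, another relative of Sparc, stood 2.21 higher in the lung than in the dish and 1.94 higher than under the skin (limma adjusted p = 0.0125 and 0.0131). Both calls were lost without lung replicate 1 (adjusted p = 0.0525 and 0.0528) and with the long-mRNA level (0.628 and 0.555), and the second also without lung replicate 2 (0.0504). Against the skin, Thbs3 (1.70) and Spock1 (0.75) were higher and Tnr (-1.0) was lower in the lung, and Spock2 (-0.94) was lower under the skin than in the dish. Each of these calls was lost on leaving out at least 6 of the 9 arrays in turn (adjusted p up to 0.18 for Thbs3, 0.135 for Spock1, 0.118 for Tnr and 0.14 for Spock2) and under 2 to 5 further alternatives. Spock1, named after its values were seen, also lost its call with the replicate number as a block (adjusted p = 0.0583).

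Among 19 elastic fibre and fibulin genes, 1 rose under the skin against the dish, with a median difference of 0.21. This was 5.26% of the list, against 12.9% of all genes. This was Loxl3, a lysyl oxidase that crosslinks collagen and elastin, with 9.30, 9.04 and 8.24 in the dish, 12.27, 11.98 and 11.98 under the skin and 8.49, 9.91 and 9.97 in the lung. It rose by 3.21 (limma adjusted p = 0.000151) and fell by 2.62 in the lung against the skin (limma adjusted p = 0.000935), above background on all 9 arrays, and both calls held under every alternative run. In the lung against the skin 10.5% of the list was called, against 15.0% of all genes, and the other gene called was Emilin1 (1.26, under background, with overlapping groups, named after its values were seen), whose call was lost without dish replicate 1 or 2, subcutaneous replicate 1 or 2 or lung replicate 1 or 2 (adjusted p = 0.0507 to 0.155), with upper quartile scaling (0.0759), RIN (0.0662) or the long-mRNA level (0.728) and with only the 6 arrays compared (0.0739). By limma 0 of the 19 were called between lung and dish samples (2 at an unadjusted p under 0.05), with a median difference of 0.27. Of 4 processing enzymes, Bmp1, the procollagen C-proteinase, rose by 1.33 under the skin against the dish (limma adjusted p = 0.048), a call lost on leaving out any of 7 arrays (adjusted p = 0.0623 to 0.164), after quantile normalization (0.0533) and with RIN (0.265).

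Of 15 receptor genes for these proteins, 4 rose and 1 fell under the skin against the dish, 3 rose and 1 fell in the lung against the dish, and 1 rose and 1 fell in the lung against the skin. The called shares were 33.3%, 26.7% and 13.3%, against 12.9%, 6.78% and 15.0% of all genes, and the median differences were -0.12, -0.07 and -0.06. The fibronectin and tenascin co-receptor syndecan 4 (Sdc4) gave 12.15, 11.65 and 11.21 in the dish, 13.27, 14.00 and 13.71 under the skin and 11.21, 11.58 and 11.76 in the lung. It rose by 1.98 under the skin against the dish (limma adjusted p = 0.000692) and fell by 2.14 in the lung against the skin (limma adjusted p = 0.000634), and its lung mean (11.52) lay under its dish mean (11.67). The fibronectin receptor subunit Itga5 gave 8.44, 7.50 and 7.33 in the dish, 9.39, 9.40 and 8.93 under the skin and 10.16, 10.09 and 9.82 in the lung. It rose by 1.48 under the skin (limma adjusted p = 0.00524) and by 2.26 in the lung (limma adjusted p = 0.000997; 0.0834 with the long-mRNA level) against the dish, although Fn1 itself was not called. The hyaluronan and osteopontin receptor Cd44 rose by 1.49 under the skin (limma adjusted p = 0.00584) and stood 0.95 higher in the lung than in the dish (limma adjusted p = 0.0829).

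The thrombospondin receptor Cd47 rose by 1.28 in the lung (limma adjusted p = 0.0202) and by 0.99 under the skin (limma adjusted p = 0.0412) against the dish. The first call was lost without dish replicate 2 or 3 (adjusted p = 0.0708 to 0.0741) and with upper quartile scaling (0.0627), the second without any dish or subcutaneous array (0.0663 to 0.12), with that scaling (0.0614), with RIN (0.0998) and with the replicate number as a block (0.056). Syndecan 1 (Sdc1) fell by 1.31 in the lung (limma adjusted p = 0.00614; 0.279 with the long-mRNA level) and by 1.00 under the skin (limma adjusted p = 0.013; 0.0522 to 0.054 without dish replicate 2 or subcutaneous replicate 2, 0.141 with RIN). Stab1, a scavenger receptor that takes up SPARC, gave 5.81, 5.57 and 5.76 in the dish, 5.56, 3.91 and 4.58 under the skin and 7.64, 7.21 and 7.36 in the lung, above background on lung replicate 1 alone. It rose in the lung by 2.72 against the skin (limma adjusted p = 0.000386) and by 1.69 against the dish (limma adjusted p = 0.0114; 0.057 to 0.0587 without dish replicate 2 or lung replicate 1, 0.115 with the long-mRNA level). Cd47 under the skin was named after its values were seen.

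**Figure D4:**
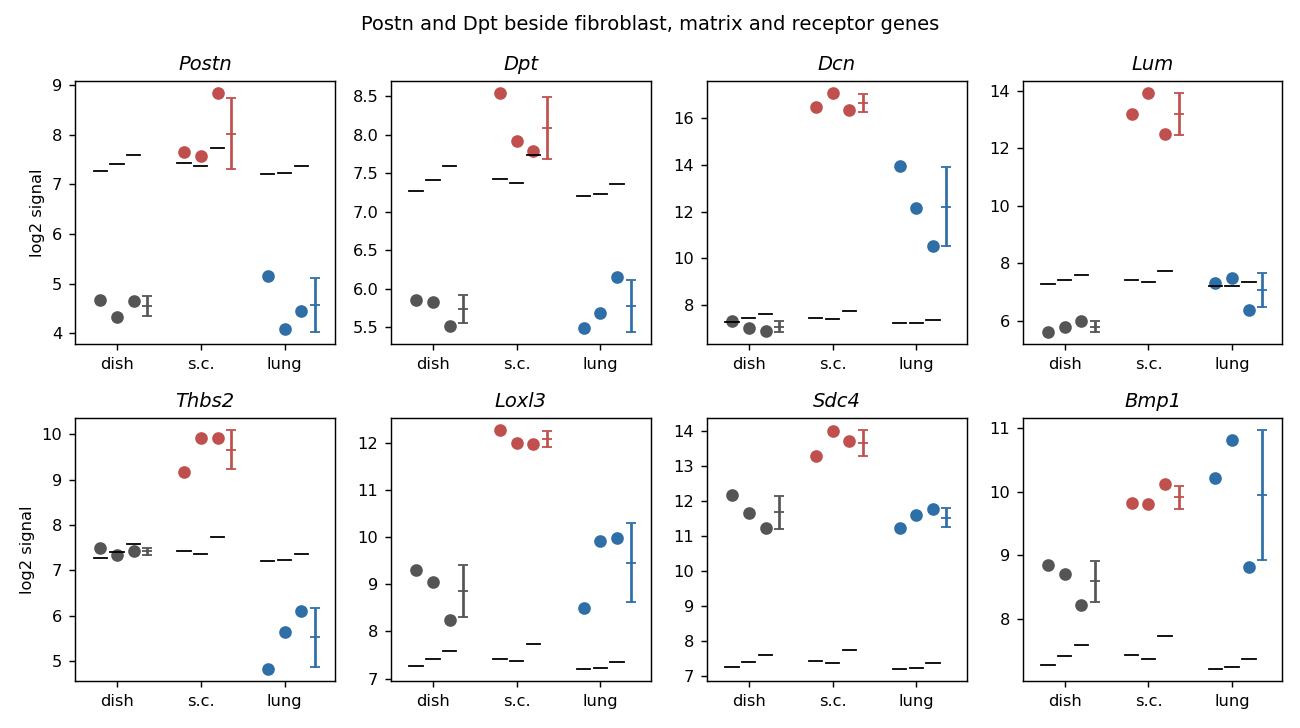
Log2 signal (y axis, a separate scale per gene) of Postn and Dpt beside the fibroblast proteoglycan genes Dcn and Lum, Thbs2, Loxl3, Sdc4 and Bmp1, drawn as in the plot of the 8 genes by array (points are arrays, black lines the 90th percentile of the negative controls, bars the mean and SD, n = 3). In all but Bmp1 every subcutaneous array lies above every dish and lung array.

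Markers of fibroblasts, the cells that commonly make periostin, were read on the same arrays. Of 12 measured fibroblast genes the summed log2 signal was 58.5 to 59.2 on the dish arrays, 76.2 to 80.2 on the subcutaneous arrays and 60.5 to 66.1 on the lung arrays. Without Dcn and Lum, left out after their values were seen, the other 10 genes summed to 45.6 to 46.3, 45.2 to 51.4 and 43.6 to 44.8. The subcutaneous and dish ranges overlapped. Of these 10 genes 9 were under background on every array, so this sum cannot show a change in fibroblast content. Under the skin against the dish 2 of the 12 rose, Dcn by 9.59 and Lum by 7.40, and 1 fell. This was 25% of the list, against 12.9% of all genes (6.41% higher, 6.47% lower). In the lung 1 rose and 0 fell against the dish (8.33%, against 6.78% of all genes). Against the skin 0 rose and 3 fell in the lung (25%, against 15.0% of all genes). The proteoglycan genes Dcn and Lum were the list's genes above background on all 3 subcutaneous arrays. Dcn gave 7.32, 6.99 and 6.85 in the dish, 16.47, 17.09 and 16.37 under the skin and 13.94, 12.15 and 10.53 in the lung. Lum gave 5.61, 5.80 and 5.99 in the dish, 13.19, 13.92 and 12.48 under the skin and 7.33, 7.51 and 6.38 in the lung. The gene that fell under the skin against the dish was the growth factor receptor gene Pdgfrb (difference -1.17, limma adjusted p = 0.0362, groups overlapping). It was above background on 2 dish arrays and 1 subcutaneous array. The other 9 genes, the collagen genes Col1a1, Col1a2 and Col3a1, Fap, Thy1, Pi16, Tcf21, Col14a1 and Clec3b, were above background on 0 of 9 arrays. Dcn and Lum, like Postn and Dpt, were thus highest in the subcutaneous group. The highest array was subcutaneous replicate 2 for Dcn and Lum, replicate 3 for Postn and replicate 1 for Dpt. With 3 arrays nothing is read from this order. Dcn and Lum also stood above the dish on all 3 lung arrays, with Lum under background in the dish and on lung replicate 3. The lung and dish values of Postn and Dpt overlapped, all under background. The part of host fibroblasts in those levels was not tested.

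Of the markers of other host cells, those of macrophages, smooth muscle, endothelium and mesothelium were mostly at background. Of 13 macrophage genes the summed log2 signal was 60.1 to 64.5 in the dish, 62.0 to 63.9 under the skin and 61.2 to 72.4 in the lung, with Lyz2 above background on lung replicates 1 and 3 and Mrc1 on lung replicate 1. Of 8 smooth muscle and pericyte genes and 7 endothelial genes 0 were above background on any array. Their summed signals were 34.2 to 38.2 and 25.7 to 32.7 over the 9 arrays. Of 5 mesothelial genes Bnc1 was above background on subcutaneous replicates 1 and 2 and lung replicate 2, and Msln on subcutaneous replicate 1, with sums of 24.9 to 26.7 in the dish, 27.8 to 29.8 under the skin and 25.8 to 26.8 in the lung. The alveolar type II gene Sftpc gave 15.59, 13.45 and 16.37 on the lung arrays and 4.95 to 5.83 on the others, and the 9 genes of its list summed to 60.9 to 76.5 in the lung and 41.5 to 45.0 elsewhere. Of these, 3 to 5 were above background on each lung array and 0 to 1 on each other array. Sftpa1 gave 9.3, 8.8 and 11.9 in the lung and was under background elsewhere. Abca3 was above background on all 3 lung arrays (7.78 to 8.04), all 3 subcutaneous arrays (7.93 to 8.84) and dish replicates 1 and 2. Abca3 rose by 1.28 under the skin against the dish (limma adjusted p = 0.0155). Sftpb and Cxcl15 passed on lung replicate 3 alone, and Sftpd, Lamp3, Napsa and Slc34a2 on no array.

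By profile over the 9 arrays, the genes nearest to Postn among 6666 others above background on at least 3 arrays were the ubiquitin ligase gene Rnf167 (root mean square difference 0.53 between centred log2 values), the lipid phosphatase gene Lpin1 (0.58), Pqlc3 (0.58), the claudin gene Cldn9 (0.61) and the sulfotransferase gene Chst1 (0.61). Their means ran from 8.46 to 11.21 in subcutaneous, from 4.84 to 8.42 in dish and from 5.03 to 8.62 in lung samples. These genes were ranked by likeness to Postn, so their high subcutaneous levels follow from the choice. Within the 8 genes the nearest profile was Tgfbi for Tnc (0.79), Fn1 (0.75) and Mfap5 (0.56), and Mfap5 for Sparc (0.81), Fbln2 (0.57) and Tgfbi (0.56). The measure is not scaled, so a gene that varies little can come out nearest without sharing a direction. In the lung against the dish Sparc differed by 1.33 and Mfap5, under background on all 9 arrays, by -0.36. The farthest from Postn was Fn1 (1.92).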

How the data were processed

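RNA of 9 samples was measured on 1-colour whole-transcript arrays, and groups were taken from the sample titles. The authors deposited 1 table of log2 signals (28846 rows, values 1.56 to 19.7), used as deposited; for normalization, software and build the sources used here say nothing. Negative controls were recognised by their feature names. Symbols came from the platform annotation (19572 features with 1 symbol, 0 with several, 2634 gene features with none), and for 55 genes with several features the one with the highest mean was used, giving 19505 genes with no filter on level.

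The tests used limma 3.58.1 (R 4.3.3; lmFit and eBayes), all 9 arrays in 1 fit of 3 group means, two-sided, with Benjamini-Hochberg adjustment over 19505 genes and calls at an adjusted p under 0.05. "At least" is the brighter group's mean minus the dimmer group's mean with its values raised to the 90th percentile of the negative controls. The fit was also run on simulated data with independent noise. These hold no effects shared by the genes of an array, so they cannot show how the fit handles such effects. The number of arrays limits the precision.

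The members and lists were chosen with earlier results of these data known. Named are all members, per list up to 3 called genes in each direction whose groups do not overlap, the 5 genes nearest to Postn, and markers above background on all 3 arrays of a group. Same-numbered samples did not deviate together (correlation of deviations across genes -0.06 to 0.09), and no pairing was used in the main fit. The labels do not say whether same-numbered samples were handled together, and these correlations cannot exclude it. Alternatives were quantile or upper quartile scaling, a filter on dim genes, an intensity trend, robust fitting, array weights, RIN or the long-mRNA level as covariates, the replicate block, the mean over features, only the 6 arrays compared, and leaving out each array.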

Additional observations from a re-analysis of the deposited data

How the results depend on the processing

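Of 24 differences (8 genes in 3 comparisons) under 471 alternative values, 415 kept their direction and their side of the threshold, 24 lost and 3 gained a call, and 29 changed sign, all of differences that were not called. Postn and Dpt kept their calls for subcutaneous against dish samples in 20 of 20 alternatives. The count of the 8 called between lung and dish samples, 1, was 0 with upper quartile scaling, RIN or the long-mRNA level, 2 with array weights, and 0 to 1 on leaving out 1 array (0 without dish replicate 1, dish replicate 2 or lung replicate 2). Between subcutaneous and dish samples it was 2 to 5 on leaving out 1 array (2 without dish replicate 1, subcutaneous replicate 1 or subcutaneous replicate 3, 5 without lung replicate 3). With the replicate number as a block the counts were 1, 3 and 4 for lung against dish, lung against subcutaneous and subcutaneous against dish, as without it. The block ended the calls of Cd47 (subcutaneous against dish) and Spock1 (lung against subcutaneous) and of no other gene named in the lists. Sign changes with upper quartile scaling gave, for lung against dish, Postn -0.32, Dpt -0.30 and Tgfbi -0.055, and for lung against subcutaneous Fbln2 -0.14 and Sparc -0.19. With the long-mRNA level they gave Postn -0.013 and Tgfbi -0.80 (lung against dish), Fbln2 -0.048 (lung against subcutaneous) and Fn1 -0.19 (subcutaneous against dish). With array weights they gave Dpt -0.11 and Fn1 0.28 (lung against dish) and Fn1 0.23 (lung against subcutaneous), and with RIN Fn1 0.087 (lung against subcutaneous) and -0.50 (subcutaneous against dish). Leaving out 1 array, lung against dish ran from -0.28 to 0.26 for Postn, -0.15 to 0.18 for Dpt, -0.79 to 0.95 for Fn1 and -0.067 to 0.81 for Tgfbi. Lung against subcutaneous ran from -0.91 to 0.82 for Fn1 and -0.079 to 0.31 for Sparc, and subcutaneous against dish from -0.44 to 0.45 for Fn1. Over all genes, 2927 calls for lung against subcutaneous became 906 with the long-mRNA level, 1476 without lung replicate 1 and 1938 without lung replicate 2. The 1322 for lung against dish became 257 with the long-mRNA level, 856 with RIN, 2352 with upper quartile scaling, 3039 with array weights and 514, 667, 591 and 765 without dish replicate 2, dish replicate 3, lung replicate 1 and lung replicate 2. The 2513 for subcutaneous against dish became 1280 with RIN and 1639 without dish replicate 2. Counts in the lists moved too. Between lung and subcutaneous samples the 6 further matricellular genes called ran from 1 (long-mRNA level) to 8 (upper quartile scaling), and the 2 elastic fibre genes from 1 to 4. Between lung and dish samples the 4 receptor genes ran from 1 (long-mRNA level) to 8 (array weights), the 2 further matricellular genes from 0 to 2, the 0 elastic fibre genes from 0 to 2 and the 0 processing enzymes from 0 to 1. Between subcutaneous and dish samples the 5 receptor genes ran from 3 to 6, the 3 further matricellular genes from 2 to 4 and the 1 processing enzyme from 0 to 1. The cause was not tested. Signals near the negative controls limit Postn, Dpt and Tnc to bounds, which cannot be given at the 95th percentile of the controls. They give no fold for Fbln2, Mfap5 and Tgfbi.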
